A study of Mus musculus with 12 samples.

Results

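Glycolysis enzyme genes were followed in whole retina of 5xFAD and WT mice at 1 and 6 months of age. The 10 genes, Hk1, Hk2, Gpi1, Pfkm, Aldoa, Tpi1, Pgk1, Eno1, Pkm and Ldha, were taken by name from a table of 55487 genes keyed by Ensembl identifier. All 10 were among the 16233 genes with enough counts to test. Aldoa stands under a pair of identifiers in the annotation; the one used here holds nearly all its counts, and the other reached at most 1.10 CPM (counts per M counts, scaled between libraries) in any library. The groups were 5xFAD at 1 month, WT at 1 month, 5xFAD at 6 months and WT at 6 months, with 3 libraries of polyadenylated RNA each. WT mice are labelled C57BL/6J and 5xFAD mice carry the strain label Tg6799. The 5xFAD line is an Alzheimer disease model in which mutant human transgenes are driven by the Thy1 promoter, which is active mainly in neurons. No treatment is given for any group, and the labels do not say whether each library came from a separate animal or from pooled retinas, so p-values measure the spread between these samples.

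Glycolysis breaks glucose down to pyruvate and yields ATP and NADH. Hexokinases (Hk1, Hk2) phosphorylate glucose, Gpi1 isomerises the product, and phosphofructokinase (Pfkm is the muscle-type subunit) commits it to the pathway. Aldolase (Aldoa) splits the sugar, Tpi1 interconverts the resulting triose phosphates, phosphoglycerate kinase (Pgk1) makes the first ATP of the lower pathway, enolase (Eno1) makes phosphoenolpyruvate, and pyruvate kinase (Pkm) turns it into pyruvate. Lactate dehydrogenase A (Ldha) then reduces pyruvate to lactate and restores the NAD that Tpi1's product needs downstream. The retina is known for turning much of its glucose into lactate even with oxygen at hand, and photoreceptors, the most numerous retinal cells, are held to do most of this, with HK2 and the M2 form of pyruvate kinase enriched in them.

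Library totals ran from 10.9 to 19.6 M expected counts, and the members had between 1697 (Pfkm) and 42836 (Pkm) counts in a library. The summed CPM of 8 rod markers was 53457 to 57347 in 5xFAD and 48898 to 52785 in WT at 1 month. At 6 months it was 53102 to 57593 in 5xFAD and 43889 to 48023 in WT, so the tissue label fits its defining markers. Of 14 marker lists, 5 had higher and 3 had lower sums in 5xFAD at 1 month with no overlap of the groups, and 3 had higher and 4 lower sums at 6 months. Those higher at 1 month were rods, bipolar cells, astrocytes, endothelium and lens, and those lower were cones, microglia and pigment epithelium. At 6 months rods, cones and blood were higher, and bipolar cells, amacrine cells, Müller glia and endothelium lower. The summed 6 cone markers differed by genotype in opposite directions at the 2 ages, summing to 1061 to 1246 CPM in 5xFAD and 1287 to 1538 CPM in WT at 1 month, and to 1454 to 1604 CPM in 5xFAD and 1122 to 1210 CPM in WT at 6 months. Pigment epithelium markers, 6 genes of which 1 stayed under 1 CPM everywhere, summed to 21.4 to 32.8 CPM in 5xFAD and 65.7 to 136 CPM in WT at 1 month. The 4 lens markers summed to 5.56 to 62.6 CPM in 5xFAD and at most 0.449 CPM in WT at that age. Müller glia markers overlapped at 1 month and summed to 2757 to 2907 CPM in 5xFAD and 3024 to 3326 CPM in WT at 6 months. Their part in the results was not tested, and in whole tissue fewer cells of a type and less RNA per cell cannot be told apart. The mean transcript length behind a count was 4220 to 4250 nt in 5xFAD and 3554 to 3790 nt in WT at 1 month. At 6 months it was 3615 to 3720 nt in 5xFAD and 3692 to 4022 nt in WT. Libraries richest in ribosomal RNA were 5xFAD at 6 months replicates 1 (1.11% of counts) and 2 (0.446%) and WT at 1 month replicate 2 (0.325%).

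Per length, Aldoa, Pkm and Eno1 were the most abundant members and Hk2 and Pfkm the scarcest. On the TPM scale (transcripts per M transcripts), the mean over 12 libraries was 3231 for Aldoa, 2824 for Pkm, 2659 for Eno1 and 1552 for Ldha. It was 1048 for Tpi1, 984 for Gpi1, 857 for Pgk1, 513 for Hk1, 174 for Hk2 and 131 for Pfkm. Other phosphofructokinase subunits, which are not members, were more abundant than Pfkm. Group means were 229 to 256 TPM for Pfkl and 303 to 480 TPM for Pfkp, so Pfkm does not stand for its whole step. The library ranges of Aldoa (2895 to 3601 TPM) and Pkm (2227 to 3315 TPM) overlapped, as did those of Pkm and Eno1 (2236 to 2995 TPM). Compared within the same library, Aldoa lay above Pkm every time. Pkm lay above Eno1 in all libraries but replicate 1 of WT at 6 months (2227 against 2236 TPM). The ranges of Tpi1 and Gpi1, Gpi1 and Pgk1, and Hk2 and Pfkm overlapped as well, although Hk2 lay above Pfkm in every library. Those of Eno1 against Ldha, Ldha against Tpi1, Pgk1 against Hk1 and Hk1 against Hk2 did not overlap. The TPM of Tpi1 rests on 1 annotated length of 1607 nt, because only 3.67% of its counts lie on transcripts of the annotation used here. Together the members averaged 11123 ± 216 CPM in 5xFAD and 12588 ± 1009 CPM in WT at 1 month, and 12059 ± 1030 CPM in 5xFAD and 10388 ± 695 CPM in WT at 6 months (SD, n = 3 each).

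**Figure D1:**
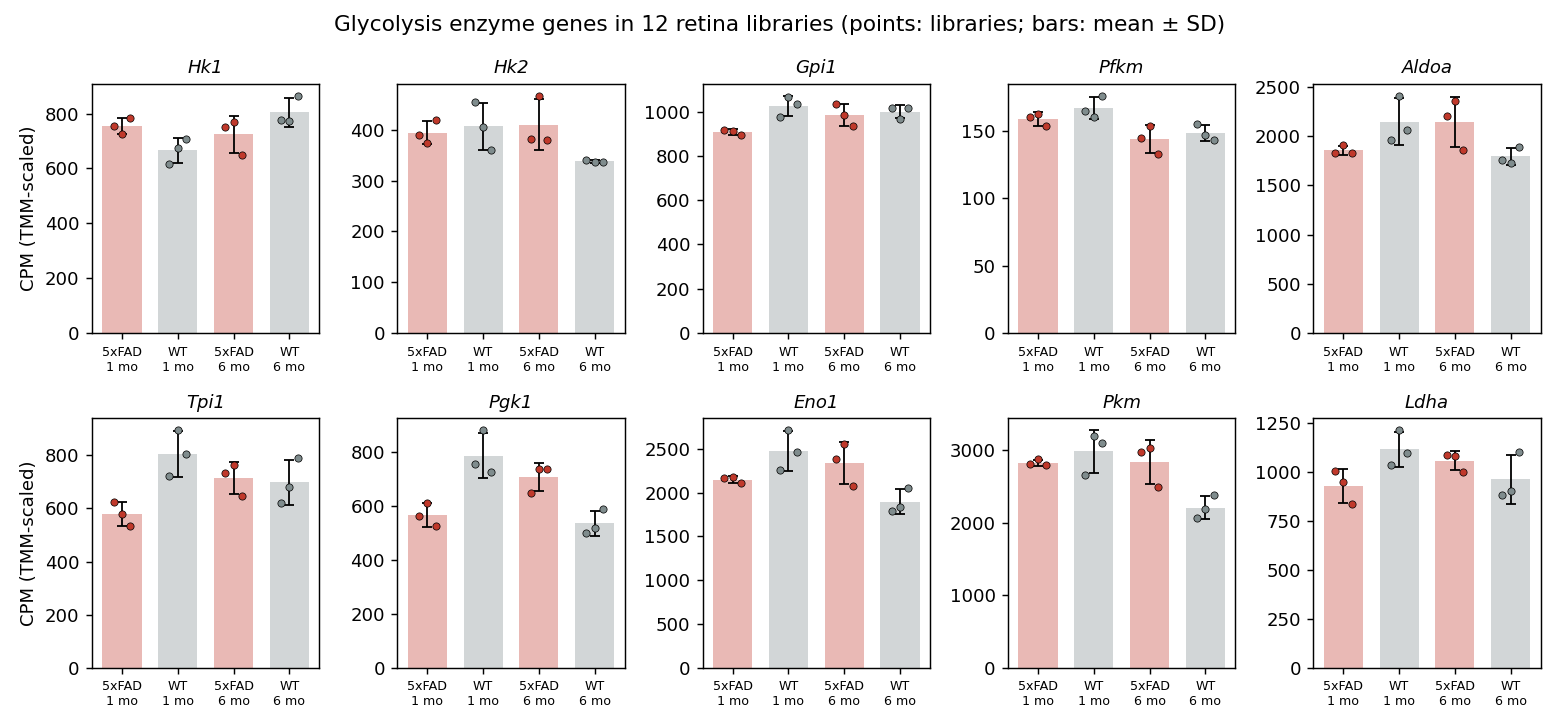
Level of each glycolysis enzyme gene in CPM by library, with 5xFAD left of WT at 1 and at 6 months. Points are libraries and bars are the mean ± SD of 3. Pgk1 lies at 526 to 613 CPM in 5xFAD and 725 to 881 CPM in WT at 1 month, and at 648 to 739 CPM in 5xFAD and 499 to 588 CPM in WT at 6 months.

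At 1 month, Tpi1 and Pgk1 were lower in 5xFAD than in WT retina, and no other member passed the test. Across all genes 19.6% were called in this comparison (10.7% higher and 8.91% lower, edgeR quasi-likelihood test with Benjamini-Hochberg adjusted p below 0.05), so 2 of 10 members is close to the background. The median log2 fold change was -0.19 over the members and -0.04 over all genes. None of the members was called higher. At an unadjusted p under 0.05, 1 was higher and 6 were lower, and the DESeq2 Wald test called 0 higher and 4 lower, adding Gpi1 and Ldha. Over all genes DESeq2 called 2034 higher and 1507 lower of 16230, and no share at the unadjusted p is given here. The libraries of the groups did not overlap for 7 of 10 members, against 37.6% of all genes.

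Tpi1 (chr6:124810586-124814296, minus strand, GRCm38) had 624, 580 and 534 CPM in 5xFAD and 722, 895 and 804 CPM in WT. Every 5xFAD library lay below every WT library, and the log2 fold change was -0.48 ± 0.10 (SE) with an adjusted p of 0.00153. Pgk1 (chrX:106187100-106203699, plus strand) had 563, 613 and 526 CPM in 5xFAD and 756, 881 and 725 CPM in WT. The groups did not overlap, and the log2 fold change was -0.47 ± 0.09 with an adjusted p of 9.72e-04. Both were called without each of the 6 libraries in turn. Ldha (chr7:46841475-46855627, plus strand), which makes lactate, had 1004, 948 and 837 CPM in 5xFAD and 1038, 1214 and 1100 CPM in WT. Its groups did not overlap, but the log2 fold change of -0.27 ± 0.10 gave an adjusted p of 0.0528 and did not pass.

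Among the other members at 1 month, Gpi1 (chr7:34201330-34230336, minus strand) had 916, 912 and 893 CPM in 5xFAD and 976, 1067 and 1034 CPM in WT, at a log2 fold change of -0.18 ± 0.08 and an adjusted p of 0.108. Aldoa (chr7:126795234-126800751, minus strand) had 1827, 1914 and 1827 CPM in 5xFAD and 1965, 2414 and 2065 CPM in WT, at -0.21 ± 0.09 and an adjusted p of 0.112. Eno1 (chr4:150236721-150248879, plus strand) had 2168, 2173 and 2108 CPM in 5xFAD and 2257, 2713 and 2469 CPM in WT, at -0.21 ± 0.09 and an adjusted p of 0.110. For these genes the groups did not overlap, yet none passed the test. Hk1 (chr10:62268855-62379908, minus strand), the hexokinase of most tissues, ran the other way without passing, with 756, 727 and 782 CPM in 5xFAD and 618, 673 and 709 CPM in WT (log2 fold change 0.18 ± 0.09, adjusted p 0.153). The groups overlapped for Hk2, Pfkm and Pkm, whose log2 fold changes were -0.04, -0.07 and -0.08 with adjusted p of 0.797, 0.630 and 0.595.

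At 6 months the called members were higher in 5xFAD retina. Pgk1, Pkm and Eno1 passed, 3 of 10 members against a background of 6.38% of all genes (2.48% higher and 3.89% lower). The median log2 fold change was 0.20 over the members and 0.00 over all genes. None was called lower by edgeR or by the DESeq2 Wald test, or fell below an unadjusted p of 0.05 in that direction. DESeq2 called 5 members higher, adding Hk2 and Aldoa, and over all genes 626 higher and 833 lower of 16230. The groups did not overlap for 5 members, against 24.2% of all genes.

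Pgk1 had 648, 739 and 736 CPM in 5xFAD and 499, 520 and 588 CPM in WT at 6 months. All 5xFAD libraries lay above all WT libraries, at a log2 fold change of 0.40 ± 0.09 and an adjusted p of 0.0116. Pkm (chr9:59656368-59679375, plus strand) had 2981, 3036 and 2488 CPM in 5xFAD and 2062, 2182 and 2385 CPM in WT. Replicate 3 of 5xFAD and replicate 3 of WT lay closest to each other, the groups did not overlap, and the log2 fold change was 0.36 ± 0.09 with an adjusted p of 0.0182. Eno1 had 2387, 2557 and 2079 CPM in 5xFAD and 1792, 1837 and 2059 CPM in WT. The lowest 5xFAD library barely exceeded the highest WT library, and the log2 fold change of 0.30 ± 0.09 had an adjusted p of 0.0422.

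These calls at 6 months depended on single libraries, and so did calls over all genes, which numbered 1035 of 16233 in the main fit. They numbered 553 of 16688 without replicate 1 of 5xFAD, 583 of 16736 without replicate 2 and 1687 of 16839 without replicate 3. For replicates 1, 2 and 3 of WT the numbers were 360 of 16830, 276 of 16848 and 1382 of 16846. Without replicate 1 of 5xFAD, Pgk1 alone passed (0.44, adjusted p 0.0183), while Pkm (0.30, adjusted p 0.106) and Eno1 (0.27, adjusted p 0.154) did not. Without replicate 2 of 5xFAD none passed, with adjusted p of 0.0579 for Pgk1, 0.10 for Pkm and 0.197 for Eno1. Without replicate 1 of WT the adjusted p were 0.112, 0.143 and 0.243 for Pgk1, Pkm and Eno1, and without replicate 2 of WT they were 0.0998, 0.118 and 0.243. Without replicate 3 of 5xFAD 4 members passed, Aldoa being the addition. In every one of these fits the log2 fold changes of Pgk1, Pkm and Eno1 stayed positive, from 0.23 to 0.47. Without the 3 libraries with most ribosomal RNA, only replicate 3 of 5xFAD was left at 6 months. It was the lowest library of its group for Pkm and Eno1. Log2 fold changes in that fit were 0.46 for Pgk1, 0.17 for Pkm and 0.13 for Eno1.

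The remaining members did not pass at 6 months. Hk2 (chr6:82725025-82774454, minus strand), the inducible hexokinase, had 382, 467 and 380 CPM in 5xFAD and 340, 336 and 337 CPM in WT, with no overlap, a log2 fold change of 0.28 ± 0.10 and an adjusted p of 0.0838. Aldoa had 2204, 2357 and 1865 CPM in 5xFAD and 1763, 1728 and 1895 CPM in WT, at 0.25 ± 0.09 and an adjusted p of 0.101. Hk1 had 753, 771 and 648 CPM in 5xFAD and 776, 774 and 866 CPM in WT, at -0.15 ± 0.09 and an adjusted p of 0.328. Ldha had 1087, 1084 and 1002 CPM in 5xFAD and 882, 901 and 1104 CPM in WT, overlapping through the third WT library (0.14, adjusted p 0.456). Tpi1 had 733, 763 and 649 CPM in 5xFAD and 622, 681 and 792 CPM in WT and its groups overlapped (0.03, adjusted p 0.899). Gpi1 and Pfkm (chr15:98092589-98132451, plus strand) differed by -0.02 and -0.05 with adjusted p of 0.911 and 0.836, and Pfkm had 133 to 154 CPM in 5xFAD and 143 to 155 CPM in WT.

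**Figure D2:**
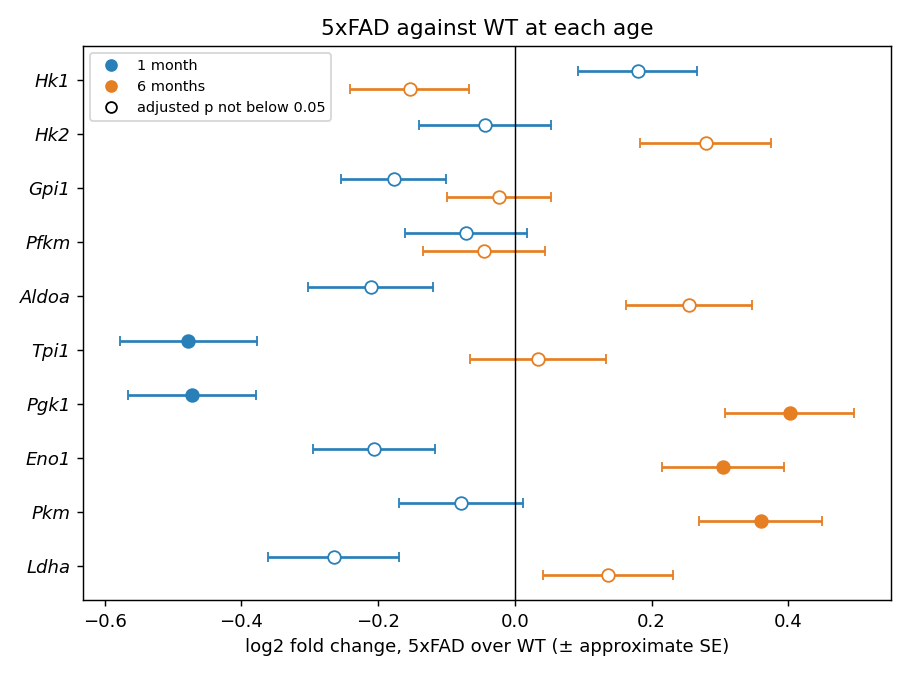
Log2 fold change of each glycolysis enzyme gene, 5xFAD over WT, at 1 month and at 6 months, with the approximate SE as a bar. Filled points have an adjusted p below 0.05; Tpi1 and Pgk1 lie near -0.48 and -0.47 at 1 month, and Pgk1, Pkm and Eno1 at 0.40, 0.36 and 0.30 at 6 months.

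With age, called members mostly fell in WT retina, and the number called in 5xFAD retina stayed near the background. In WT retina, Pgk1, Pkm and Eno1 fell at 6 months relative to 1 month and Hk1 rose. Thus 4 of 10 members were called against a background of 10.5% of all genes (6.01% higher and 4.49% lower). In 5xFAD retina, Tpi1 and Pgk1 rose, 2 of 10 members against a background of 23.2% (10.8% higher and 12.4% lower). That count is close to the background. The age comparisons use the libraries of the genotype comparisons again, so they are not separate evidence.

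In WT, Pgk1 averaged 535 ± 46.4 CPM at 6 months and 787 ± 82.7 CPM at 1 month, a log2 fold change of -0.56 ± 0.09 with an adjusted p of 5.79e-04. Pkm averaged 2210 ± 163 CPM at 6 months and 2983 ± 291 CPM at 1 month (-0.43 ± 0.09, adjusted p 0.00328). Both passed without each WT library in turn, and neither group overlapped the other. Eno1 averaged 1896 ± 143 CPM at 6 months and 2479 ± 228 CPM at 1 month (-0.39 ± 0.09, adjusted p 0.00681). Its adjusted p was 0.0503 without WT at 1 month replicate 2, 0.0699 without WT at 6 months replicate 1 and 0.0666 without replicate 2 of that group. Hk1 averaged 805 ± 52.6 CPM at 6 months and 667 ± 46.0 CPM at 1 month (0.27 ± 0.09, adjusted p 0.0453). Hk1 kept its call only without WT at 1 month replicate 3; without each of the other 5 WT libraries its adjusted p was 0.0527 to 0.107 at log2 fold changes of 0.22 to 0.34. Without WT at 6 months replicate 3, 6 members passed, adding Aldoa (-0.29), Ldha (-0.32) and Tpi1 (-0.30) while Hk1 dropped out. That fit called 1855 of 16846 genes, against 1705 of 16233 in the main fit. The groups did not overlap for 7 members in WT, against 30.7% of all genes.

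In 5xFAD, Pgk1 averaged 708 ± 51.8 CPM at 6 months and 568 ± 43.5 CPM at 1 month (0.32 ± 0.09, adjusted p 0.0163). Tpi1 averaged 715 ± 59.2 CPM at 6 months and 579 ± 44.6 CPM at 1 month (0.30 ± 0.10, adjusted p 0.0309). Neither gene's libraries overlapped, which held for 3 members, Gpi1 included, against 36.5% of all genes. Pgk1 lost its call without 5xFAD at 1 month replicate 1 (adjusted p 0.0572) or 3 (0.0956) and without 5xFAD at 6 months replicate 2 (0.0659). Tpi1 lost it without 5xFAD at 1 month replicate 2 (0.0909) or 3 (0.147) and without 5xFAD at 6 months replicate 1 (0.0949) or 2 (0.124). Without 5xFAD at 6 months replicate 3, Aldoa was called too (0.28, adjusted p 0.0195). Pkm averaged 2835 ± 302 CPM at 6 months and 2825 ± 43.9 CPM at 1 month in 5xFAD.

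The test of the difference itself, the log2 fold change of 5xFAD over WT at 6 months minus that at 1 month, called 7 of 10 members against a background of 25.0% of all genes (11.7% higher and 13.3% lower). Of these, 6 were positive and Hk1 was negative, and the median was 0.42 over the members and 0.06 over all genes. Pgk1 had the largest value among the members, 0.87 ± 0.13 with an adjusted p of 3.89e-05, and Pgk1 and Eno1 (0.51 ± 0.13, adjusted p 0.00456) passed without each of the 12 libraries in turn. Tpi1 (0.51 ± 0.14, adjusted p 0.00982) lost its call without WT at 6 months replicate 1 (0.39, adjusted p 0.0624), and Aldoa (0.47 ± 0.13, adjusted p 0.0106) without WT at 6 months replicate 2 (0.39, adjusted p 0.0546). Pkm (0.44 ± 0.13, adjusted p 0.0139) lost it without WT at 1 month replicate 3, WT at 6 months replicate 1 or 2, or 5xFAD at 6 months replicate 1, with adjusted p of 0.0593 to 0.0758. Ldha (0.40 ± 0.14, adjusted p 0.0311) had an adjusted p from 0.00246 to 0.155 when libraries were left out and failed in 8 of 12 fits. Hk1 (-0.33 ± 0.12, adjusted p 0.0489) ranged from 0.0193 to 0.109 and failed in 6 of 12. Leaving out the 3 libraries with most ribosomal RNA leaves 1 library of 5xFAD at 6 months. The values in that fit were 0.85 for Pgk1, -0.50 for Hk1 and 0.18 to 0.30 for Tpi1, Eno1, Aldoa, Pkm and Ldha. In the same test 4 of 6 cone markers were called, all positive, at 1.47 for Arr3, 1.03 for Opn1mw, 0.74 for Gnat2 and 0.44 for Pde6h (adjusted p 1.01e-06 to 0.0353), and Opn1sw (0.05) and Pde6c (-0.21) did not pass. Summed markers of bipolar cells and endothelium were higher in 5xFAD at 1 month and lower at 6 months, without overlap. The part of these cell types in the members' values was not tested.

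The libraries also differed by group in transcript length. The members' transcripts are mostly short, with count-weighted lengths of 1483 nt (Aldoa) to 5386 nt (Hk2), and 5xFAD libraries at 1 month drew their counts from longer transcripts than the others. For Tpi1 the length and GC content are those of the annotated transcript Tpi1-205 (1607 nt), which held no counts. Its values with the trend taken out therefore rest on an assumed length. When a trend of counts with length and GC content was fitted in every library and taken out, Tpi1 at 1 month became -0.23 with an adjusted p of 0.0730, while Pgk1 remained called at -0.32 (adjusted p 0.00832). Aldoa, Eno1 and Pkm turned to 0.11, 0.02 and 0.09 at 1 month. Hk2, the longest member, became -0.28 at 1 month (adjusted p 0.0302) and 0.47 at 6 months (adjusted p 8.35e-04). The calls of Pgk1 (0.45), Pkm (0.36) and Eno1 (0.30) at 6 months held without the trend, and Aldoa joined them at 0.23 (adjusted p 0.0188). With age in 5xFAD, Pgk1 (0.20, adjusted p 0.0839) and Tpi1 (0.13, adjusted p 0.317) no longer passed. In the test of the difference between the ages, Pgk1 (0.77) and Eno1 (0.28), Pkm (0.27) and Hk1 (-0.26) still passed, Hk2 was added (0.76), and Tpi1 (0.27, adjusted p 0.10), Aldoa (0.13, adjusted p 0.356) and Ldha (0.20, adjusted p 0.226) did not.

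**Figure D3:**
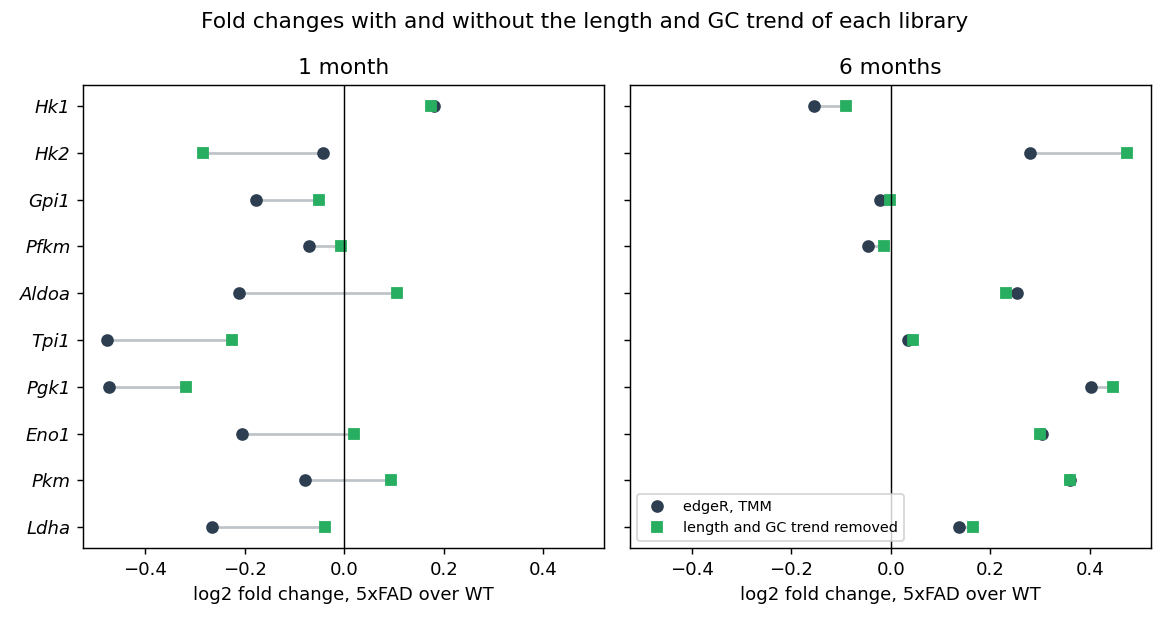
Log2 fold change of each glycolysis enzyme gene, 5xFAD over WT, from the edgeR fit (circles) and with the fitted length and GC trend taken out (squares), at 1 and 6 months. At 1 month the values of Aldoa, Eno1 and Pkm move across 0 and Hk2 moves to -0.28, while at 6 months Pgk1, Eno1 and Pkm stay at 0.45, 0.30 and 0.36.

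Processed pseudogenes carry copies of several of these mRNAs, and reads from them can be assigned to either locus. A search of annotated transcripts (at least 90% identity over 200 bases) found 56 matching genes, most of them processed pseudogenes. The 56 also held protein-coding genes such as Eno1b and Alox8, and Gm26513 and Gm49759, which overlap a member's own locus. Of the matching genes, 21 were for Ldha, 10 for Pkm and none for Hk1 or Hk2. Of the 56, 9 reached 1 CPM in a group. The Pgk1 copies Gm5537 (chr3:58102996-58104247, minus strand) and Pgk1-rs7 matched Pgk1 at 100% identity over their whole length, so short reads inside them cannot be told apart by sequence. Copies took 12.3% ± 1.99 of Pgk1 and copy counts in 5xFAD and 7.53% ± 3.95 in WT at 1 month, and 8.89% ± 1.82 in 5xFAD and 10.1% ± 0.314 in WT at 6 months (SD, n = 3 each). Gm5537 had 79.6 ± 12.5 CPM in 5xFAD and 61.4 ± 32.8 CPM in WT at 1 month, and its groups overlapped at both ages. With the copies' counts added, Pgk1 had log2 fold changes of -0.39 (adjusted p 0.00256) at 1 month and 0.38 (adjusted p 0.0103) at 6 months.

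For Eno1 the copies Gm4735 (99.6% identity) and Eno1b (99.5%) took 1.69% ± 0.258 in 5xFAD and 1.68% ± 0.335 in WT at 1 month, and 1.56% ± 0.144 in 5xFAD and 0.897% ± 0.0927 in WT at 6 months. Gm4735 (chr2:80837141-80838442, plus strand) averaged 22.5 ± 4.25 CPM in 5xFAD and 9.21 ± 2.07 CPM in WT at 6 months, a log2 fold change of 1.29 ± 0.20 with an adjusted p of 4.76e-04. That change was larger than the 0.30 of Eno1 itself, but adding the copies left Eno1 at 0.31. All processed and other pseudogenes together held 2.64% to 2.75% of counts in 5xFAD and 1.15% to 1.38% in WT at 6 months, and 1.57% to 1.63% in 5xFAD and 2.24% to 2.97% in WT at 1 month. Their part in the result was not tested. Gm1840 for Gpi1 and Gm6560 for Pkm stayed at or under 0.421% and 0.229% of the joint counts in every library, and Alox8 shares only 202 bases with a Gpi1 transcript. Gm26513 overlaps Pfkm and Gm49759 overlaps Pkm within the locus. Adding all copies left the called members of each comparison as they were.

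**Figure D4:**
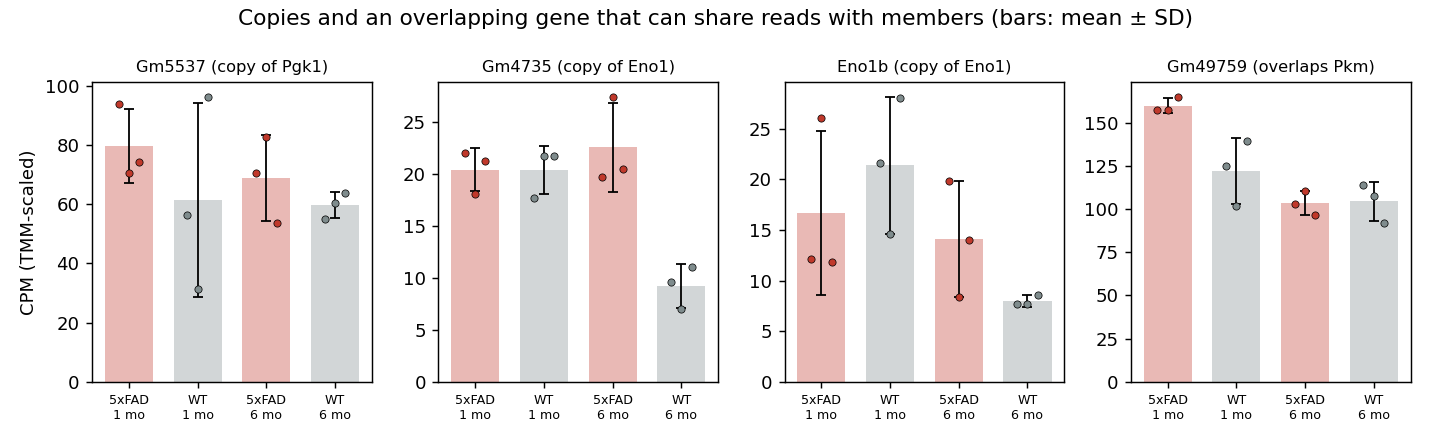
Level in CPM by library of the Pgk1 copy Gm5537, the Eno1 copies Gm4735 and Eno1b, and Gm49759, which overlaps Pkm, with 5xFAD left of WT at each age. Points are libraries and bars the mean ± SD of 3; Gm4735 averages 22.5 CPM in 5xFAD and 9.21 CPM in WT at 6 months, and Gm49759 160 CPM in 5xFAD and 122 CPM in WT at 1 month.

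Pkm makes M1 and M2 pyruvate kinase by including either of a pair of mutually exclusive exons. M1 is the constitutively active form of many differentiated tissues, and M2 is allosterically regulated and is the form reported in photoreceptors. The exons, which decide the isoform counted below, are shown from the GENCODE M21 transcripts on GRCm38, 5′ to 3′ on the plus strand, with capitals marking the bases that differ between them in an ungapped comparison. They lie at chr9:59675029-59675195 (M1) and chr9:59675568-59675734 (M2), are both 167 bases long and share 103 bases (61.7%).
Pkm M1 exon: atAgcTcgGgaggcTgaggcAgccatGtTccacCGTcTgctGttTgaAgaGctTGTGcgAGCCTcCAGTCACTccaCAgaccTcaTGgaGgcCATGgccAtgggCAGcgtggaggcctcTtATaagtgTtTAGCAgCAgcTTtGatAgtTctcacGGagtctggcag
Pkm M2 exon: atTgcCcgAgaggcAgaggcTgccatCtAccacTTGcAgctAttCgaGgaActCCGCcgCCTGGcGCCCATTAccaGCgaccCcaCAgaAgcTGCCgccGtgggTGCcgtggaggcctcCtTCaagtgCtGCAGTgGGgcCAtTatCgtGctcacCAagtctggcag

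M2 transcripts outnumbered M1 transcripts in all 12 libraries, by 1.90 to 4.05 times per length. The M1 transcript made up 24.7%, 25.4% and 23.5% of Pkm counts in 5xFAD and 22.4%, 16.96% and 20.2% in WT at 1 month. The groups did not overlap, and the difference of 4.65 percentage points had a two-sided exact permutation p of 0.1, which is the smallest that 3 against 3 libraries allow. The M2 share was 72.7% ± 0.854 in 5xFAD and 78.9% ± 2.78 in WT at 1 month, again without overlap (exact p = 0.1). At 6 months the M1 share was 26.3% ± 3.61 in 5xFAD and 24.8% ± 2.18 in WT (exact permutation p = 0.7, n = 3 each), and the M2 share was 72.5% ± 3.28 in 5xFAD and 72.8% ± 3.02 in WT (exact p = 1.0). The groups overlapped for both isoforms at 6 months. RSEM divides reads between isoforms by a model, so these shares are estimates.

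Introns kept in mature transcripts are the other feature the study measured, and 24 annotated retained-intron transcripts belong to 8 of the members. For Pkm they held 2.49%, 2.18% and 2.29% of counts in 5xFAD and 0.985%, 1.02% and 1.10% in WT at 1 month. The 5xFAD libraries all lay above the WT libraries (exact permutation p = 0.1, the smallest possible). At 6 months the shares were 1.23%, 1.18% and 0.717% in 5xFAD and 2.61%, 2.21% and 1.16% in WT, overlapping through WT replicate 3 (exact permutation p = 0.3). Gm49759 (chr9:59672814-59676700, plus strand) spans the M1 and M2 exons and can share such reads. It averaged 160 ± 4.48 CPM in 5xFAD and 122 ± 19.0 CPM in WT at 1 month (log2 fold change 0.39 ± 0.11, adjusted p 0.0152), and 103 ± 6.98 CPM in 5xFAD and 105 ± 11.3 CPM in WT at 6 months.

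Gpi1 had the largest retained-intron share among the members. It was 26.3% ± 2.37 in 5xFAD and 21.1% ± 2.54 in WT at 1 month, and 21.3% ± 1.72 in 5xFAD and 29.1% ± 6.27 in WT at 6 months, with overlapping groups and an exact permutation p of 0.2 at both ages (n = 3 each). Aldoa, Eno1 and Ldha had group means of 0.408% to 3.37%, and their groups overlapped at both ages. Pgk1 held only 13.6 such counts per library on average, at 0.294% ± 0.0912 in 5xFAD and 0.129% ± 0.0199 in WT at 6 months without overlap (exact p = 0.1). Hk1 averaged fewer than 10 such counts, Tpi1 is left out because most of its counts lie on transcripts not matched to the annotation, and Hk2 and Pfkm have none annotated.

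**Figure D5:**
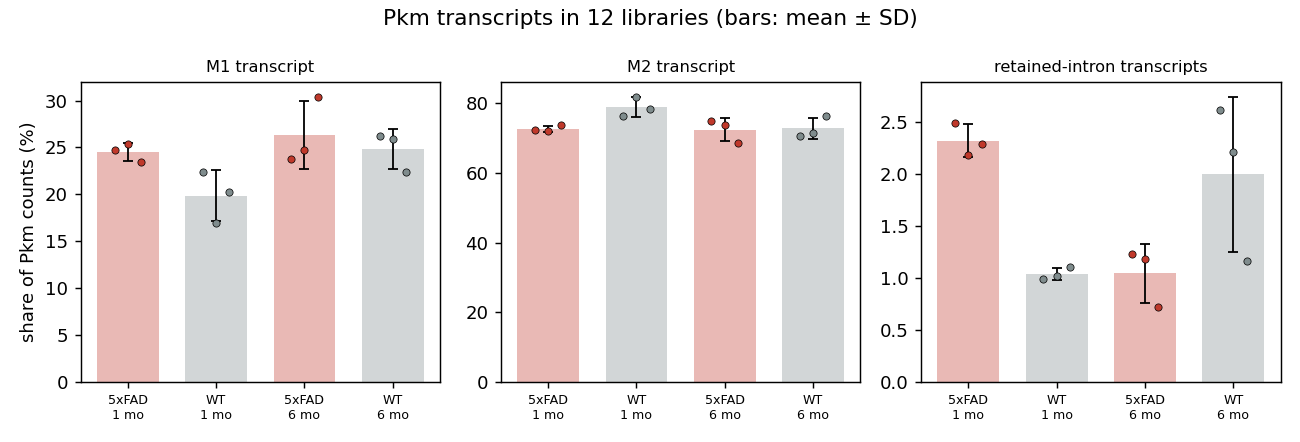
Share of Pkm counts on M1 transcripts, on M2 transcripts and on retained-intron transcripts by library, in percent, with 5xFAD left of WT at each age; bars are the mean ± SD of 3 libraries. At 1 month the 5xFAD libraries lie above WT for M1 (23.5% to 25.4%, against 16.96% to 22.4%) and for retained introns (2.18% to 2.49%, against 0.985% to 1.10%).

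Of 98 transcripts of the members, 58 were tested, and 4 passed at 1 month and 1 at 6 months, against backgrounds of 2.52% and 0.488% of 45326 transcripts. Hk1-212, a protein-coding transcript of 896 nt, averaged 63.1 ± 6.08 CPM in 5xFAD and 37.0 ± 2.02 CPM in WT at 1 month (0.81 ± 0.13, adjusted p 0.0157). The retained-intron transcript Pkm-205 averaged 63.1 ± 3.43 CPM in 5xFAD and 24.7 ± 8.31 CPM in WT (1.40 ± 0.31, adjusted p 0.0479). Gpi1-207, a candidate for nonsense-mediated decay, averaged 106 ± 12.6 CPM in 5xFAD and 245 ± 48.0 CPM in WT (-1.18 ± 0.21, adjusted p 0.0198). Pgk1-201, the main Pgk1 mRNA, averaged 561 ± 45.0 CPM in 5xFAD and 789 ± 63.8 CPM in WT (-0.46 ± 0.10, adjusted p 0.0483). At 6 months the M1 transcript Pkm-202 averaged 731 ± 31.6 CPM in 5xFAD and 549 ± 17.2 CPM in WT (0.38 ± 0.07, adjusted p 0.0488).

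These transcript calls were near the threshold. Pkm-202 lost its call at 6 months without each of the 6 libraries of that age, with adjusted p of 0.0623 to 0.233. Pkm-205 and Pgk1-201 kept theirs only without WT at 1 month replicate 3, and otherwise had adjusted p of 0.110 to 0.190 and 0.0856 to 0.165. Gpi1-207 and Hk1-212 lost theirs without 5xFAD at 1 month replicate 1 (0.0762 and 0.0655), replicate 2 (0.0769 and 0.0595) or WT at 1 month replicate 2 (0.0640 and 0.0854).

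Several of these genes are known targets of hypoxia-inducible factors, which bind the core letters ACGTG in their promoters. In the 250 bases before the annotated start, ACGTG on either strand was found in 16.6% of 32851 RefSeq promoters and at 8 of 20 starts of the members, spread over Aldoa, Hk2, Ldha, Pfkm, Pgk1 and Pkm. The Ldha and Pgk1 windows, which hold 3 and 2 separate matches, are shown from RefSeq on GRCm38.p6, 5′ to 3′ on the plus strand, with ACGTG or its reverse complement in capitals and overlapping matches counted as 1. Windows with 3 or more matches made up 0.256% of all promoters. The GC-box letters GGGCGG, searched on both strands, were found at 10 of 20 starts in 8 of the members and in 32.7% of all promoters. Ldha lies at chr7:46845554-46845803 and Pgk1 at chrX:106186850-106187099. The expression data hold no measurement of binding, so a match only describes the letters of the window.
Ldha promoter: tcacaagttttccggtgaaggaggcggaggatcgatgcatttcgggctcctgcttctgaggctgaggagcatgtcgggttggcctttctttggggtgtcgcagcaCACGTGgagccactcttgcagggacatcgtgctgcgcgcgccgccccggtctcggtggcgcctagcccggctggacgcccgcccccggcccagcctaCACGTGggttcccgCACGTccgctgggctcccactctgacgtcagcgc
Pgk1 promoter: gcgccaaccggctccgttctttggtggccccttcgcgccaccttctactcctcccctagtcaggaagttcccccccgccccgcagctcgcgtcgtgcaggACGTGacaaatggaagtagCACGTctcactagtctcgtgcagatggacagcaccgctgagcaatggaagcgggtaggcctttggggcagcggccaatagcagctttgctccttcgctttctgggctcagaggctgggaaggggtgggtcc

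Genes of the same and neighbouring pathways were described in 7 lists of 98 genes in all. Across all genes 19.6% were called at 1 month (10.7% higher and 8.91% lower) and 6.38% at 6 months (2.48% higher and 3.89% lower). Of the other glycolysis enzymes, 15 of 21 were tested, and 1 was higher and 5 lower in 5xFAD at 1 month, with a list median of -0.35. The 6 calls became 3 without WT at 1 month replicate 2 and 2 after correction for length and GC. Over all genes those fits called 1893 of 16818 and 1875 of 16233. Pfkp, the platelet-type phosphofructokinase subunit, was higher (0.48 ± 0.09, adjusted p 7.25e-04), and Eno3, the muscle enolase (-0.98 ± 0.19, adjusted p 8.33e-04), and Ldhb, the lactate dehydrogenase B subunit (-0.41 ± 0.10, adjusted p 0.00372), were lower. At 6 months 2 were higher and 2 lower. Pgam1, the phosphoglycerate mutase between Pgk1 and Eno1, was higher (0.53 ± 0.09, adjusted p 7.26e-04), and Pfkp (-0.42 ± 0.09, adjusted p 0.00727) and Gapdh (-0.40 ± 0.10, adjusted p 0.0147) were lower. With the length trend removed Pfkp did not pass at either age (0.14 and -0.17), nor did Ldhb at 1 month (-0.12). Gapdh, which feeds Pgk1 directly and has many pseudogenes whose reads were not examined here, was lower in 5xFAD at 6 months, where Pgk1, Eno1 and Pkm were higher. Gapdh lost its call when the 6 libraries of that age were fitted alone (-0.39, adjusted p 0.0839).

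The enzymes of the tricarboxylic acid cycle, which oxidise what glycolysis delivers to mitochondria, were lower for 7 of 17 tested genes in 5xFAD at 1 month, with a median of -0.20. The share over all genes was 19.6% at 1 month (8.91% lower). The 7 calls became 4 without 5xFAD replicate 1 or WT replicate 3, 3 without 5xFAD replicate 2 or 3, and 2 without WT replicate 2 or after correction for length and GC. Calls over all genes in these fits ran from 1875 of 16233 (length and GC) to 2834 of 16786 (without WT replicate 3). Suclg1, a subunit of succinyl-CoA ligase, had the smallest p (-0.62 ± 0.12, adjusted p 9.19e-04), followed by the isocitrate dehydrogenase subunit Idh3b (-0.41 ± 0.11, adjusted p 0.00718) and then the succinate dehydrogenase subunit Sdhc at -0.49 ± 0.12 (adjusted p 0.00761; 0.0520 without WT at 1 month replicate 2). Idh3b lost its call without 5xFAD at 1 month replicate 2 (adjusted p 0.0615), without WT at 1 month replicate 2 (0.0764) and after correction for length and GC (-0.19, adjusted p 0.214). None was called higher at 1 month and none in either direction at 6 months by edgeR, where 1 passed without WT at 6 months replicate 3. That fit called 1382 of 16846 genes. At an unadjusted p under 0.05 no gene was higher at 1 month and 4 were higher at 6 months, and the DESeq2 Wald test called 0 and 1. Over all genes DESeq2 called 2034 higher at 1 month and 626 higher at 6 months, of 16230. Mitochondrially encoded RNA was 2.95% to 3.16% of counts in 5xFAD and 4.23% to 5.85% in WT at 1 month, and 5.02% to 5.11% in 5xFAD and 5.69% to 6.70% in WT at 6 months. Its part in these results was not tested.

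Among 16 tested regulators of flux, 2 were higher and 3 lower at 1 month and 2 were lower at 6 months. The 5 calls at 1 month became 3 without WT replicate 1, and the 2 at 6 months became 1 without 5xFAD replicate 2 or WT replicate 1 or 2. For these and the next 2 lists, the shares over all genes were 19.6% at 1 month and 6.38% at 6 months. Without single libraries, calls over all genes ran from 1893 of 16818 to 2868 of 16836 at 1 month. At 6 months they ran from 276 of 16848 to 1687 of 16839. Pfkfb2, which makes and degrades the activator of phosphofructokinase, was higher in 5xFAD at 1 month (0.43 ± 0.09, adjusted p 0.00106) and lower at 6 months (-0.51 ± 0.09, adjusted p 9.65e-04). At 6 months Pfkfb2 stood at -0.40 without the 3 libraries richest in ribosomal RNA, which leaves 1 library of 5xFAD at that age. Mpc1, a subunit of the mitochondrial pyruvate carrier, was lower at 1 month (-0.69 ± 0.14, adjusted p 0.00116). Of 9 tested genes of glucose and lactate transport, 1 was higher and 2 lower at 1 month and 1 was higher at 6 months. Of these calls 1 was left at 1 month without WT replicate 2, and 0 to 3 at 6 months when libraries were left out (0 without 5xFAD replicate 1 or WT replicate 1, 3 without 5xFAD replicate 3, 2 without WT replicate 3). Slc16a8, the lactate transporter of the pigment epithelium, was lower at 1 month (-3.17 ± 0.74, adjusted p 0.00367), where the summed markers of that epithelium were lower in 5xFAD as well. Of 13 tested hypoxia response genes, 2 were higher and 2 lower at 1 month. Mxi1, a transcriptional antagonist of Myc, had the smallest p (-0.49 ± 0.10, adjusted p 0.00153). The 4 calls became 2 without 5xFAD replicate 3 or WT replicate 1 or 3, and 1 without WT replicate 2. At 6 months edgeR called none of these, with 2 higher and 1 lower at an unadjusted p under 0.05 and 1 and 1 by DESeq2. Over all genes DESeq2 called 626 higher and 833 lower of 16230 at that age. Without 5xFAD at 6 months replicate 2 or WT at 6 months replicate 3, 1 hypoxia response gene passed.

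No gene of the pentose phosphate pathway (7 tested) or of glycogen and gluconeogenesis (9 tested) passed edgeR or the DESeq2 Wald test between genotypes at either age. At an unadjusted p under 0.05, 1 pentose phosphate gene was lower at 1 month and 1 glycogen or gluconeogenesis gene was higher at 6 months.

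Across the 12 libraries the members did not all vary together. Against the mean of the other 9 members on the log2 CPM scale, Pearson's r was 0.95 for Eno1, 0.93 for Aldoa, 0.85 for Ldha, 0.78 for Pgk1, 0.74 for Pkm and 0.69 for Tpi1. It was 0.52 for Gpi1, 0.41 for Hk2, 0.28 for Pfkm and -0.42 for Hk1. WT at 1 month replicate 2, the library with the most ribosomal RNA of that group, was the highest of all 12 for Aldoa, Tpi1, Pgk1, Eno1, Pkm and Ldha. Of 9795 other genes above 10 CPM, those most like the members' mean were Sys1 (r = 0.97), Senp3 (0.95), Hexim2 (0.95), Phkg2 (0.95) and Cyhr1 (0.94). These values describe 12 libraries that share their scaling, their length trends and their group differences, and carry no test.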

How the data were processed

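Whole-retina polyadenylated RNA was sequenced in 4 groups of 3 libraries. Per the labels' protocols the library kit does not mark strand, so reads of a gene and an antisense partner cannot be told apart. The authors deposited expected counts per gene and per transcript, not normalised. RSEM 1.3.3 and STAR 2.7.1a, with Trim Galore 0.6.6, DESeq2 1.32.0 and the build GRCm38.p6, are listed in the submitters' processing notes; the annotation is not given in the sources used here. Identifiers were matched to GENCODE M21 on GRCm38 (55227 of 55487 genes and 141469 of 142699 transcripts). Replicates differed by more than counting noise (chi-square over its degrees of freedom 4.05 to 26.7), so no library duplicates another.

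Expected counts were rounded and fitted in R 4.3.3 with edgeR 4.0.16 (TMM scaling, filterByExpr, robust quasi-likelihood, 12 libraries, 8 residual degrees of freedom, Benjamini-Hochberg adjustment over all genes or transcripts tested, called below 0.05). The SE of a log2 fold change is its size over the square root of the F statistic. CPM use TMM-scaled library sizes, and TPM use count-weighted transcript lengths. Where annotated transcripts hold under 90% of a gene's counts, as for Tpi1, 1 annotated length is used instead. Shares were compared with two-sided exact permutation tests, which cannot go below p = 0.1 with 3 against 3. Copies were found with BLAST 2.17.0 (90% identity over 200 bases) and named from 1 CPM in a group. Alternatives were DESeq2 1.42.0 size factors and Wald test, library size alone, other filters on low counts, the replicate number as a block, only the libraries compared, an offset for the trend of each library with length and GC (4-df splines, over 99.8% of genes), leaving out the 3 libraries with most ribosomal RNA, copies added, and each library left out. After the files were seen, adding only copies that match over most of their length was tried as well. On simulated counts of 16233 genes for 5xFAD against WT at 1 month, the gene fit called 27 of 67 genes changed 1.5-fold, 34 of 67 changed 2-fold and 50 of 66 changed 4-fold, with 4 false calls and no wrong sign. The changed genes were drawn at random over all levels, from the WT mean at 1 month and with no length or GC trend. These numbers therefore do not measure recovery or false calls for the members in the real libraries.

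The members, the 7 pathway lists, the 14 marker lists and the rules were chosen with earlier results of these data known. All members, copies from 1 CPM, up to 4 called genes per list with the smallest p, and the 5 genes most correlated with the members' mean (from 10 CPM, predicted genes and pseudogenes left out) could be named. Same-numbered libraries did not deviate together (18 correlations from -0.0852 to 0.0623). No pairing by number was seen, though a weak pairing could be missed by this check. Motifs were searched in the 250 bases before each start in the RefSeq promoter table; protein sequences were not used here. Python 3.11.15 with pandas 2.3.3, scipy 1.17.1 and matplotlib 3.10.9 made the shares and the figures.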

Additional observations from a re-analysis of the deposited data

Results flagged for a closer look

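The effect of genotype differed between the ages for 7 glycolysis enzyme genes by the edgeR interaction test. The difference, 5xFAD against WT at 6 months minus the same at 1 month on the log2 scale, was 0.87 for Pgk1, 0.51 for Tpi1, 0.51 for Eno1, 0.47 for Aldoa, 0.44 for Pkm, 0.40 for Ldha and -0.33 for Hk1. Across all genes 25.0% were called in this test. Each group's mean transcript length behind a count and its share of pseudogene counts moved as well, as did the markers of cones, bipolar cells and endothelium. The length was 4237 nt in 5xFAD and 3709 nt in WT at 1 month, and 3658 nt in 5xFAD and 3911 nt in WT at 6 months. The summed cone markers were 1061 to 1246 CPM in 5xFAD and 1287 to 1538 CPM in WT at 1 month, and 1454 to 1604 CPM in 5xFAD and 1122 to 1210 CPM in WT at 6 months, and their part was not tested. With the length and GC trend removed, the values of Pgk1, Eno1, Pkm and Hk1 still passed (0.77, 0.28, 0.27 and -0.26), and those of Tpi1, Aldoa and Ldha did not (0.27, 0.13 and 0.20). The value of Tpi1 rests on an assumed length.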

How the results depend on the processing

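At 1 month the 2 calls, Tpi1 and Pgk1, stood under each scaling, filter, block and library left out, but with the length and GC trend removed the 2 calls were Hk2 and Pgk1. The DESeq2 Wald test called 4 members, and 3541 of 16230 genes over all (1459 at 6 months). At 6 months the 3 calls became 1 when only the libraries compared were fitted, 5 with the length and GC trend removed, 1 without the 3 libraries richest in ribosomal RNA (which leaves 1 library of 5xFAD at 6 months, assumed to vary like the others), 5 by the DESeq2 Wald test and 0 to 4 without single libraries. With age in 5xFAD the 2 calls became 1 without the trend (Hk2), 1 without those 3 libraries and 0 to 3 without single libraries. With age in WT the 4 calls ran from 2 to 6, and in the interaction the 7 calls became 2 without those 3 libraries and ran from 4 to 7 without single libraries. Over all genes, calls without single libraries ran from 1893 to 2868 at 1 month and from 276 to 1687 at 6 months. They ran from 2550 to 4014 with age in 5xFAD, 780 to 1855 with age in WT and 2905 to 4556 in the interaction. Member transcripts called ran from 0 to 5 at 1 month and 0 to 3 at 6 months without single libraries. With the replicate number as a block, 0 transcripts were called at either age, and members called were 2 at 1 month, 2 at 6 months (Eno1 lost), 2 with age in 5xFAD, 3 with age in WT (Hk1 lost) and 5 in the interaction (Ldha and Hk1 lost). No pairing of the samples by these numbers was seen.

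Values that changed sign were all uncalled. With the trend removed, Aldoa, Eno1 and Pkm at 1 month became 0.11, 0.0184 and 0.0939, with age in 5xFAD Hk1, Aldoa, Eno1 and Pkm became 0.0362, -0.0146, -0.0086 and -0.0761, Gpi1 with age in WT 0.0193, and Pfkm in the interaction -0.00805. Without the 3 libraries richest in ribosomal RNA, Tpi1 at 6 months became -0.11, Hk2, Eno1 and Pkm with age in 5xFAD -0.0385, -0.0346 and -0.17, Gpi1 with age in WT 0.000193, and Pfkm in the interaction -0.0541. Pkm with age in 5xFAD, 0.00498 by edgeR, was -0.00715 with DESeq2 size factors, -0.00717 by the DESeq2 Wald test, -0.00552 with only the libraries compared, -0.0226 with copies added, and -0.00185 and -0.00227 with minima of 1 count in all and 1 CPM in 3 samples. Pfkm in the interaction was -0.0143 and -0.00652 with those minima. Without single libraries, values ran from -0.0973 to 0.0672 for Hk2 and from -0.0651 to 0.13 for Tpi1 (5xFAD against WT at 1 and 6 months), from -0.0488 to 0.103 for Hk2 and from -0.0467 to 0.0735 for Pkm (age in 5xFAD), from -0.0467 to 0.0218 for Gpi1 (age in WT) and from -0.0636 to 0.0523 for Pfkm (interaction). The cause was not tested.

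With the trend removed, 40.4% of all genes called at 1 month and 75.4% at 6 months were higher in 5xFAD, against 54.5% and 38.9% with it. A minimum of 50 retained-intron counts would leave out Pgk1 only. Expected counts split reads between copies and isoforms by a model, and 3 libraries a group limit every exact test of a share to p = 0.1.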
